A study of Mus musculus with 10 samples.

Results

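The genes of the proteasome, its assembly factors and its activators were followed in 10 CT26 tumors by polyA RNA sequencing. The members were taken by name. They are the rows whose gene name starts with Psm, a subunit letter from a to g and a number, without the inducible catalytic subunits Psmb8, Psmb9 and Psmb10, and with an average of at least 1 CPM (the count relative to the library total, scaled to 1000000) over the 10 tumors. In all, 46 of the 36009 rows met this rule. Another 7 rows had such a name and stayed under the minimum. They are the testis-specific Psma8 at 0.567 CPM, the thymus-specific Psmb11 at 0.526 CPM and 5 pseudogenes, while the members nearest to the minimum were Psmc3ip at 9.84 CPM and Psme2b at 10.4 CPM, so no gene lay close to it.

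CT26 is a mouse colorectal carcinoma line. The tumors were grown under the skin of wild-type female BALB/c mice, and the sequenced piece was removed at surgery, before a gel loaded with poly(I:C), a synthetic double-stranded RNA, was placed on the tumor left behind. The 6 responders are tumors from mice whose residual tumor then regressed completely, and the 4 non-responders come from mice whose tumor grew without delay. No tumor had been treated when it was sampled, and each tumor is 1 mouse. Tumors are numbered within their group only for naming.

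The 26S proteasome is the main ATP-dependent protease of the cytosol and nucleus. Its 20S core is a barrel of alpha and beta rings with the cutting sites inside. The 19S regulatory particle on its ends binds ubiquitinated proteins, unfolds them with a ring of ATPases and feeds them in. Other caps can take the place of the 19S particle, and of these PA28-alpha/beta, made by Psme1 and Psme2, is known to be induced by interferon (IFN) gamma together with the catalytic subunits of the immunoproteasome, which shape the peptides shown on MHC class I.

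By role, the 46 members were 7 alpha and 7 constitutive beta genes of the 20S core, 17 genes of the 19S particle, 7 assembly chaperones, 4 PA28 genes, the PA200 activator Psme4, the inhibitor Psmf1 and 2 genes that the name pattern also takes in. These 2 are Psmc3ip, a partner protein of meiotic recombination, and Psme3ip1, a protein that binds PA28-gamma. They are no subunits, and the description of subunits and activators does not cover them, the chaperones or the inhibitor. Estimated counts totaled 23374649 to 38042544 per tumor, and the members held 0.459% to 0.501% of them, lowest in non-responder 1. A member had between 104 and 10930 counts in a tumor, and all 46 passed the filter on low counts.

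Tumor content bears on every value, because in bulk tumor RNA fewer cells of a type and less RNA per cell cannot be told apart. The 4 leukocyte markers summed to 940.3 to 1416 CPM in responders and to 620.1, 869, 854 and 752 CPM in non-responders 1 to 4. The 7 macrophage markers likewise did not overlap, with 2321 to 3506 CPM in responders and 1706 to 2261 CPM in non-responders. The cytotoxic lymphocyte list ran from 122 to 318 CPM and from 30.1 to 134 CPM, the skeletal muscle list from 411 to 1275 CPM and from 345 to 475 CPM, and both overlapped between groups. In edgeR's quasi-likelihood test, 3 of the 4 leukocyte and 5 of the 7 macrophage markers had an adjusted p under 0.05. So had 2 of the 7 cytotoxic lymphocyte and 3 of the 6 skeletal muscle markers, all of them higher in responders. For all genes tested this share was 8.06%. No fibroblast, endothelial, adipocyte or skin keratinocyte marker passed. None of the markers searched was at 0 in every tumor, but 6 of the 8 epithelial carcinoma markers (Epcam, Krt8, Krt18, Krt19, Cdx2 and Vil1) averaged under 1 CPM. The other 2 were Krt20, an intestinal keratin, at 12.7 to 37.7 CPM in responders and 75.3, 32.5, 59.4 and 44.5 CPM in non-responders, and Cdh1, which ranged from 2.63 to 7.03 CPM over the 10 tumors. The epithelial list summed to 17.5 to 42.1 CPM in responders and 84.8, 40.3, 66.5 and 53.7 CPM in non-responders, and 4 of 4 tested genes had lower estimates in responders, with 0 called. Whether cell content has a part in the differences among members was not tested. Non-responder 1 stood apart from the other tumors in IFN-related genes and the 20S core, though not in the 19S or proliferation sums. Values without it are given beside the results they touch.

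Among all members, 1 gene, Psme2b, differed between responders and non-responders in edgeR's quasi-likelihood test at an adjusted p under 0.05. That is 2.17% of the members, while 8.06% of the 16041 genes tested were called. Every adjusted p given here comes from this test, except in ranges over all alternatives, which include DESeq2 and limma-voom. At an unadjusted p under 0.05 there were 9 of 46 members, or 19.6%, against 29.1% of all genes. Of these 9, Psme2b, Psmg4, Psme1 and Psma4 had higher estimates in responders, and Psmd4, Psmd2, Psmc4, Psmc1 and Psmd5 had lower ones. Psme2b was also the only member whose 6 responders all lay above the 4 non-responders, an arrangement found in 5.84% of all genes. Psmc1 and Psmd2 were the 2 members with every responder below every non-responder, which held for 4.55% of all genes.

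Most of the 46 members varied within a narrow range. The median size of the log2 fold change, whatever its sign, was 0.06 over members and 0.13 over all genes tested. The 95% interval of the fold change lay within 0.25 of 0 on the log2 scale for 39 of 46 members, with bounds a median of 0.11 from the estimate. The coefficient of variation of CPM over the 10 tumors was under 10% for 42 of 46 members. Its median was 5.06%, compared with 11.2% for all genes, which were not matched to the members on abundance. The 4 members above 10% were Psme2b at 33.3%, Psme1 at 20.7%, Psme2 at 19.6% and Psmg4 at 14.0%.

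**Figure D1:**
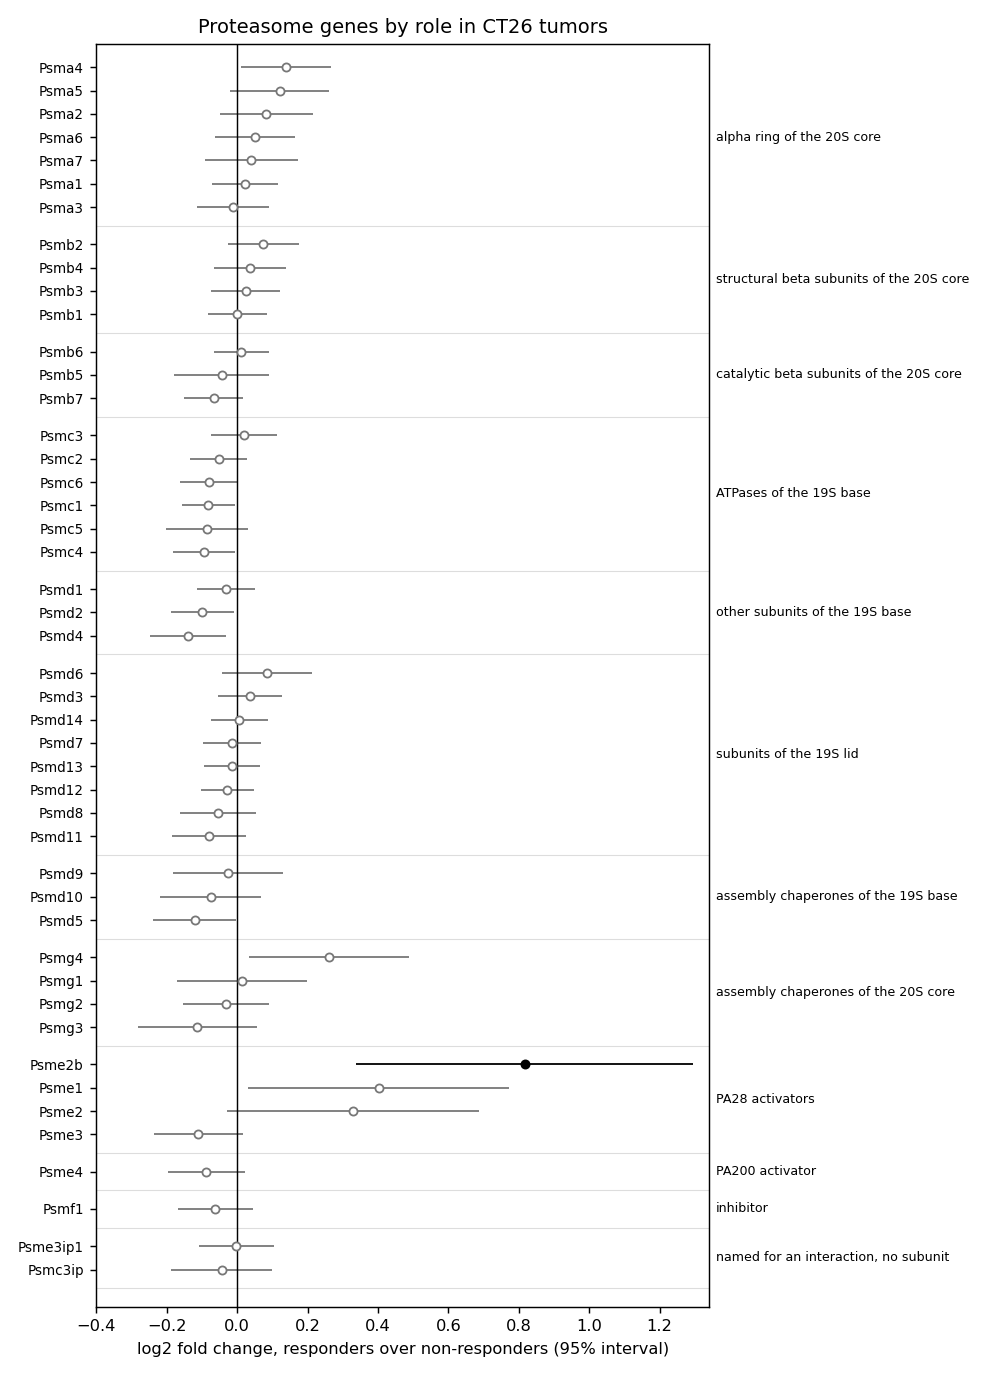
Log2 fold change of responders over non-responders for the 46 members, grouped by role; points are edgeR estimates from 6 and 4 tumors, bars are 95% intervals, and the filled point is the 1 member with an adjusted p under 0.05. Psme2b stands at 0.82, Psme1 at 0.40 and Psme2 at 0.33, while the 20S estimates lie mostly at or right of 0 and the 19S estimates mostly left of it.

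The alpha subunits form the outer rings of the 20S core and gate its entry. None of the 7 was called, and 6 of 7 had higher estimates in responders. Psma4 had the largest. It measured 172 to 179 CPM in responders, with a median of 175, and 137, 173, 168 and 160.3 CPM in non-responders 1 to 4. Non-responder 1 was far below the others and non-responder 2 lay inside the responder range. The log2 fold change was 0.14 (SE 0.06, adjusted p = 0.145). Without non-responder 1 it was 0.08 (adjusted p = 0.293). Psma3 was at the other end of the ring. Its responders spanned 84.1 to 98.2 CPM with a median of 93.0, and the non-responders, at 90.7, 93.2, 93.6 and 95.7 CPM, all fell inside that span (estimate -0.01, SE 0.05, adjusted p 0.894).

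The structural beta subunits carry no active site. Psmb2 had the largest estimate of the 4, with 106 to 117 CPM in responders (median 113) and 97.6, 112, 109 and 107 CPM in non-responders, of which only the first was outside the responder range (log2 difference 0.07, SE 0.05, adjusted p = 0.312). Without non-responder 1 the Psmb2 estimate was 0.04. Psmb1 had the smallest, with 190.0 to 198 CPM in responders (median 194) against 182, 198, 194 and 201 CPM, and its estimate was 0.00 with an interval from -0.08 to 0.08. Per length, Psmb4 had the highest level of all members, 114 ± 5.06 RPKM (CPM per 1000 bases of exon, SD, n = 10), followed by Psme2 at 106 ± 20.9, a difference smaller than the SD of Psme2. With the length of the longest transcript in place of all exons, Psme2 came first at 195 RPKM and Psmb4 second at 188.

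The constitutive catalytic subunits Psmb5, Psmb6 and Psmb7 provide the chymotrypsin-like, caspase-like and trypsin-like sites. Psmb6 was among the most even of all members, at 97.3 to 103 CPM in responders (median 99.6) and 94.2, 102, 101 and 99.4 CPM in non-responders, with a coefficient of variation of 2.64%. Its log2 fold change was 0.01 (SE 0.04, interval -0.07 to 0.09). Psmb5 measured 32.2 to 37.7 CPM in responders (median 33.4) and 34.8, 31.6, 35.7 and 37.7 CPM in non-responders. The groups overlapped over nearly their whole range, and the estimate was -0.04 (SE 0.06, adjusted p = 0.677). Psmb7 stood at 109 to 115 CPM in responders (median 114) and at 114, 115, 119 and 126 CPM in non-responders, the last of which was the highest value of the gene (log2 fold change -0.07, SE 0.04, adjusted p = 0.269).

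Many proteasome genes are known targets of Nfe2l1, a transcription factor that restores proteasome levels when activity falls short and binds antioxidant response elements. Its own RNA was level, with 249 to 270.1 CPM in responders (median 259.6) and 277, 249, 269 and 253 CPM in non-responders (estimate -0.02, SE 0.04, adjusted p 0.842). Nfe2l2, the related oxidative stress factor, gave -0.04 (SE 0.05, adjusted p = 0.614). The core of that element, TGACNNNGC, was searched on both strands of RefSeq promoter windows (GRCm38.p6) that run from 250 bases before the start site to 50 after it. It was present in 6 of the 43 windows that matched 39 members, or 14.0%, and in 12.4% of all 32851 windows. The matches near the start sites of 2 of the constitutive catalytic genes are shown, with the motif in capitals, on the strand of the gene and starting 9 bases before the start site of Psmb6 and 47 before that of Psmb5.
Psmb6, chr11:70525338-70525367, plus strand: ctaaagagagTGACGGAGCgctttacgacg
Psmb5, chr14:54618023-54618052, minus strand: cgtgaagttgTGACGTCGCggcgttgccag
A match is only a run of letters in the window and does not show that a factor bound there.

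The 19S particle went the other way from the alpha ring in its estimates. Of 17 genes, 13 had lower estimates in responders, with a median log2 fold change of -0.05, while 10 of the 14 genes of the 20S core had higher ones, with a median of 0.03. The median of all genes tested was -0.01, and 51.8% of them had lower estimates. No 19S or 20S gene was called in edgeR. At an unadjusted p under 0.05 there were 4 of 17 and 1 of 14, or 23.5% and 7.14%, both below the 29.1% of all genes. The ATPases, which unfold substrates and thread them into the core, ran from Psmc4 to Psmc3. Psmc4 measured 98.1 to 109.9 CPM in responders (median 105) and 111, 107, 114 and 115 CPM in non-responders, so only non-responder 2 reached into the responder range (log2 difference -0.09, SE 0.04, adjusted p = 0.141). Psmc3 had the only higher estimate of the 6, 0.02 (SE 0.04), with 136 to 147 CPM in responders (median 141) and 132, 144, 134 and 148 CPM in non-responders, which lay below, within and above the responders.

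The lowest estimates of the particle were those of Psmd4 and Psmd2, followed closely by Psmc4. Psmd4, an intrinsic ubiquitin receptor, measured 125 to 146 CPM in responders (median 136) and 149, 139, 152 and 157 CPM in non-responders. Non-responder 2 lay among the responders and the other 3 above them, and the log2 fold change was -0.14 (SE 0.05, interval -0.25 to -0.03, adjusted p = 0.0907). Psmd2, a large scaffold subunit that docks ubiquitin shuttles, measured 259 to 285 CPM in responders (median 266) and 290.4, 287, 295 and 287 CPM in non-responders. The groups did not overlap, but the gap between them was small (log2 fold change -0.10, SE 0.04, adjusted p = 0.132). Adrm1, another ubiquitin receptor of the base that the name rule does not take in, had a higher estimate in responders, 0.08 (SE 0.07, adjusted p = 0.487). Psmc1, an ATPase of the base, was the other gene with separate groups, 100.4 to 108 CPM against 109.7 to 112 CPM (estimate -0.08, SE 0.03, adjusted p 0.142). Psmd1, the second scaffold subunit, had a value of -0.03 (SE 0.04), with 213 to 229 CPM in responders (median 224) and 227, 222, 233 and 224 CPM in non-responders.

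The lid removes ubiquitin chains from the substrate. Of its 8 members, 5 had lower and 3 higher estimates, none past the threshold. Psmd11 was lowest, with 125 to 139.7 CPM in responders (median 132) and 149.9, 133, 141 and 132 CPM in non-responders, of which non-responders 1 and 3 lay above the responders (log2 difference -0.08, SE 0.05, adjusted p = 0.287). Without non-responder 1 the Psmd11 estimate was -0.04. Psmd6 was highest, with 59.3 to 71.6 CPM in responders (median 66.6) and 60.5, 63.5, 61.5 and 64.8 CPM in non-responders, all inside the responder span (log2 fold change 0.08, SE 0.06, adjusted p = 0.360). Psmd14, the deubiquitinase of the lid, had 104 to 109 CPM in responders and 102 to 111 CPM in non-responders, with an estimate of 0.01 (SE 0.04).

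Summed over genes, the 20S core reached 1766 to 1849 CPM in responders (median 1828) and 1609.6, 1824, 1806 and 1821 CPM in non-responders. The 19S particle summed to 2094 to 2189 CPM in responders (median 2119) and to 2203, 2144, 2225 and 2243 CPM in non-responders. The ratio of the sums was 0.834 to 0.883 in responders (median 0.844) and 0.731, 0.851, 0.812 and 0.812 in non-responders. Non-responder 1 had the lowest ratio by far, non-responder 2 lay among the responders, and the other non-responders were just below them. In non-responder 1, 11 of the 14 genes of the core were at their lowest of the 10 tumors, compared with 2 of the 17 genes of the 19S particle. Without non-responder 1 the median log2 fold change of the core turned to -0.01, with 6 of 14 estimates higher, while that of the 19S particle was -0.04, with 15 of 17 estimates lower. Thus the higher estimates of the core rested on 1 tumor and the lower estimates of the 19S particle did not.

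**Figure D2:**
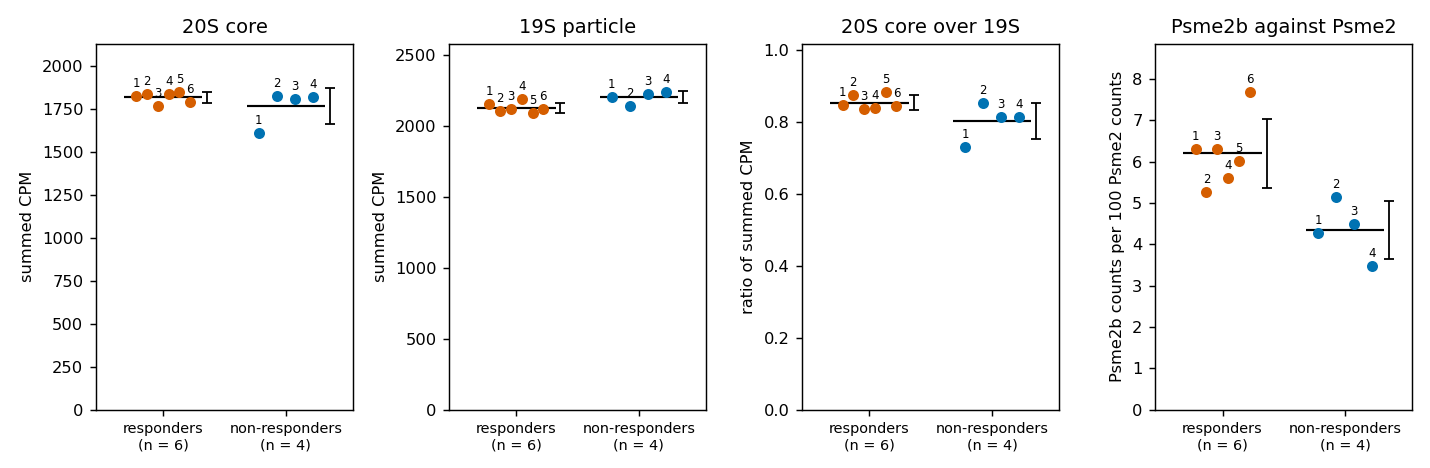
Summed CPM of the 14 genes of the 20S core and the 17 genes of the 19S particle, their ratio, and Psme2b counts per 100 Psme2 counts; each point is a tumor with its number, lines are group means and bars are SD (n = 6 and n = 4). Non-responder 1 is low in the core (1609.6 CPM) and in the ratio (0.731) but not in the 19S sum.

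The assembly chaperones build the particles and leave before they work. Among those of the 20S core, Psmg4 had the largest estimate, with 13.7 to 16.7 CPM in responders (median 14.4) and 10.9, 14.9, 10.3 and 12.9 CPM in non-responders. Only non-responder 2 reached the responders, and the log2 fold change was 0.26 (SE 0.10, interval 0.03 to 0.49, adjusted p = 0.123). Psmg3 had the lowest, -0.11 (SE 0.08, adjusted p = 0.352), with 15.6 to 19.3 CPM in responders (median 17.4) and 17.2, 18.3, 18.3 and 21.6 CPM in non-responders, of which the last was the highest. All 3 chaperones of the 19S base had lower estimates. Psmd5 measured 62.4 to 77.3 CPM in responders (median 70.8) and 80.3, 74.9, 74.2 and 76.9 CPM in non-responders, 1 of which lay above the responders (estimate -0.12, SE 0.05, adjusted p 0.159). Psmd9 had the lowest level per length of all members, 3.89 RPKM. Its responders were at 26.9 to 30.6 CPM (median 27.5) and its non-responders at 26.6, 26.5, 27.6 and 33.3 CPM, so that only non-responder 4 stood out (log2 difference -0.03, SE 0.07, adjusted p = 0.838).

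The PA28 genes showed the widest spread of all roles. Psme1, the alpha subunit of PA28, measured 223 to 261 CPM in responders (median 242) and 104, 230.3, 206 and 188 CPM in non-responders 1 to 4. Of the non-responders, 3 were below every responder and non-responder 2 lay inside their range. The log2 fold change was 0.40 (SE 0.17, interval 0.03 to 0.77, adjusted p = 0.141), which did not pass the threshold. Over the alternatives it ran from 0.22, without non-responder 1, to 0.54, without non-responder 2. Psme2, the beta subunit, had 183 to 230.3 CPM in responders (median 203) and 97.9, 202, 191 and 159 CPM in non-responders. Here both non-responders 2 and 3 lay among the responders, and the log2 fold change was 0.33 (SE 0.16, interval -0.03 to 0.69, adjusted p = 0.208). Over the alternatives it ran from 0.16 to 0.45, with the same tumors left out. The 2 genes lie 5.91 kb apart on chromosome 14, Psme1 on the plus strand (chr14:55578123-55581529) and Psme2 on the minus strand (chr14:55587441-55591113).

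Psme3 encodes PA28-gamma, a nuclear cap of its own. It measured 125 to 142 CPM in responders (median 127) and 153, 125, 143 and 139 CPM in non-responders, and the highest value of the gene was in non-responder 1, where Psme1 and Psme2 were lowest. The log2 fold change was -0.11 (SE 0.06, adjusted p = 0.230). Without non-responder 1 it was -0.06. The ratio of Psme1 to Psme3 in RPKM was 2.38 to 2.62 in responders (median 2.44) and 0.908, 2.46, 1.93 and 1.81 in non-responders. Psme4, the PA200 cap known for acetylated histones, had 111 to 128 CPM in responders (median 113) and 120.3, 118, 131 and 120.5 CPM in non-responders, so that 1 responder lay among the non-responders and the other 5 below them (log2 fold change -0.09, SE 0.05, adjusted p = 0.270). Psmf1, an inhibitor of the core, had 43.7 to 52.3 CPM in responders (median 47.5) and 48.3, 49.4, 50.03 and 50.6 CPM in non-responders, all within the responder range (estimate -0.06, SE 0.05, adjusted p 0.419). Psmc3ip, at 9.12 to 10.3 CPM in responders (median 9.83) and 9.97, 9.52, 10.7 and 9.95 CPM in non-responders, gave -0.04 (SE 0.07). Psme3ip1, at 41.2 to 45.7 CPM (median 44.4) and 42.3, 41.7, 45.2 and 47.7 CPM, gave an estimate of 0.00 (SE 0.05). Neither of these 2 differed by more than its spread.

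**Figure D3:**
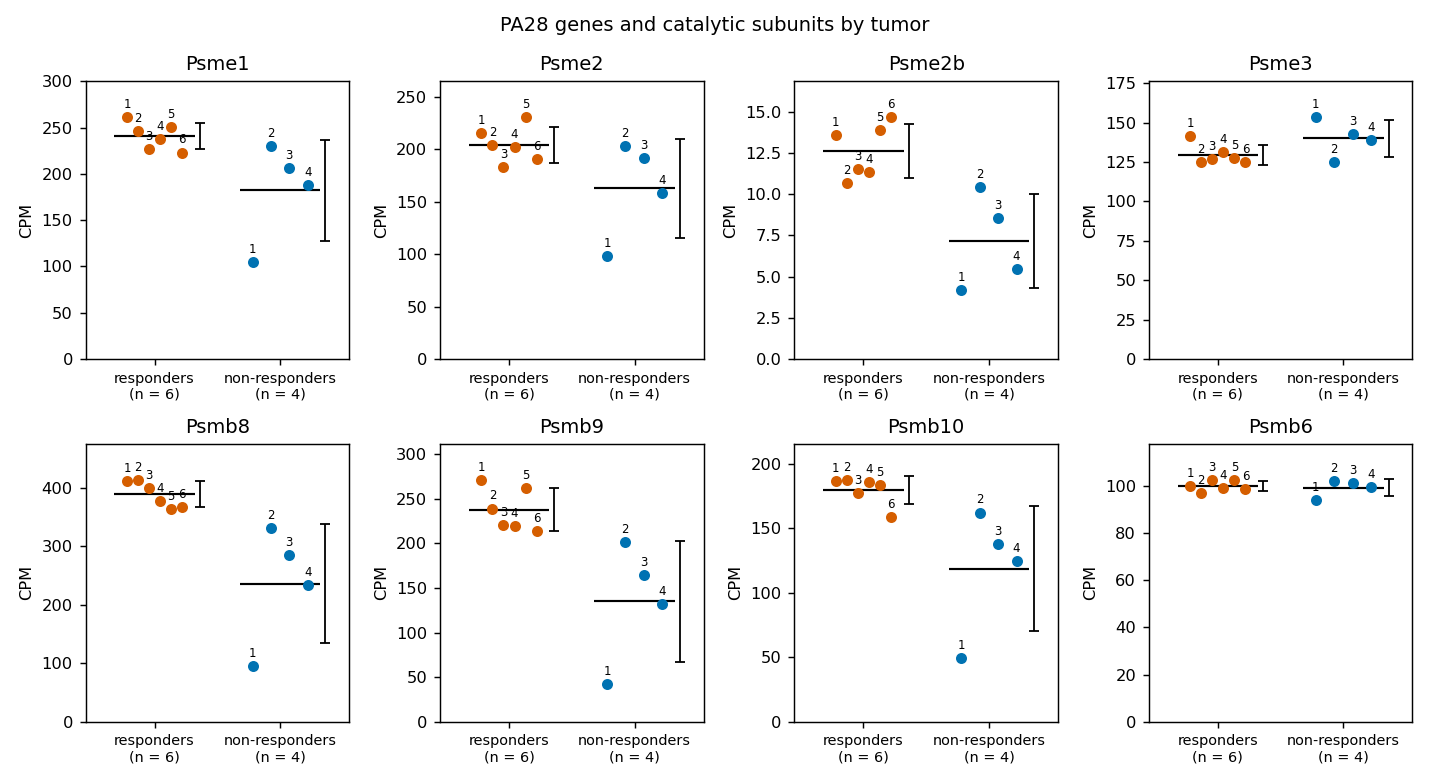
CPM of the PA28 genes Psme1, Psme2, Psme2b and Psme3, the inducible catalytic subunits Psmb8, Psmb9 and Psmb10, and the constitutive subunit Psmb6; each point is a tumor with its number, lines are group means and bars are SD (n = 6 and n = 4), and axes start at 0. Non-responder 1 is the lowest tumor in Psme1, Psme2, Psme2b and the inducible subunits and the highest in Psme3, while Psmb6 stays between 94.2 and 103 CPM.

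Psme2b was the 1 member called. It is an intron-less copy of Psme2 on chromosome 11 (chr11:48945354-48946190, minus strand, 837 bases), annotated as protein coding. Responders measured 10.7 to 14.7 CPM (median 12.6) and non-responders 4.20, 10.5, 8.58 and 5.49 CPM. The groups did not overlap, though non-responder 2 was only just below the lowest responder. It was higher in responders by a log2 fold change of 0.82 (SE 0.22, interval 0.34 to 1.30, adjusted p = 0.0453). The call was lost when any 1 of 8 tumors was left out, all except responder 4 and non-responder 2, and over every alternative the fold change ran from 0.64 to 1.06 and its adjusted p from 0.00338 to 0.116.

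The copy is close enough to its parent for reads to be shared. The coding sequences are 693 bases in Psme2 and 717 in Psme2b. In a global alignment they differed by 24 bases of gap and 13 substitutions, an identity of 98.1% outside the gaps, whereas Psme1 and Psme2 were 63.1% identical. Of the 31-base words in the Psme2b transcript, 76.5% also occur in Psme2, and 66.2% of those of Psme2 occur in Psme2b. A window of 150 coding bases is shown because, of the windows without a gap that were compared, none had more substitutions. It has 3, given in capitals, and leaves 38 of its 120 words of 31 bases the same in both genes.
Psme2, coding bases 397 to 546: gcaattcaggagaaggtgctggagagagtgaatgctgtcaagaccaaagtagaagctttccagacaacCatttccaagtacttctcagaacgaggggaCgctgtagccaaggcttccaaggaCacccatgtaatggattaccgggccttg
Psme2b, coding bases 421 to 570: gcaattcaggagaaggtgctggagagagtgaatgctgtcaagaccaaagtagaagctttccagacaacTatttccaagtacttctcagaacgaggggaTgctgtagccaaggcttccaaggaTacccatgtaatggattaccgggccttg
The first lies in exons between chr14:55587723-55588452, the second at chr11:48945549-48945698, both on the minus strand and from the GENCODE vM21 transcripts of GRCm38. Shared words are rarer in this window than over the whole transcripts. Where words are shared, estimated counts can be split between the genes, so the counts of both are uncertain.

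The counts did not keep to a fixed share of the parent. There were 5.26 to 7.70 Psme2b counts per 100 Psme2 counts in responders (median 6.16) and 4.28, 5.15, 4.49 and 3.47 in non-responders, groups that did not overlap. The difference in this ratio was not tested. The copy also lies inside an intron of Gm12185, on the same strand, and shares 41 bases with an exon of 9930111J21Rik1, in a cluster of IFN-inducible GTPase genes. Gm12185 measured 27.8 to 48.9 CPM in responders and 3.71, 30.2, 25.5 and 12.4 CPM in non-responders (log2 difference 1.10, SE 0.42, adjusted p = 0.113). For 9930111J21Rik1 the values were 29.4 to 36.8 CPM and 13.5, 34.1, 24.3 and 17.7 CPM (log2 fold change 0.54, SE 0.20, adjusted p = 0.108). The GTPase gene Irgm1 nearby had 247 to 386 CPM in responders and 59.7, 283, 259 and 160.5 CPM in non-responders (estimate 0.81, SE 0.33, adjusted p 0.134). All 3 were lowest in non-responder 1, as Psme2b was. Whether reads from these overlapping transcripts enter the Psme2b count was not tested.

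Psme2b is the extreme case among the members. The share of 31-base words also found in another gene of the table was over 10% for 16 of 46 members and 0 for 19, with a median of 2.43%. It was 67.8% for Psmb5, 66.8% for Psmb3, 64.0% for Psma5 and 46.4% for Psma4, most of it with loci of no assigned function such as Gm3375 for Psmb5 and Gm8394 for Psma5, and the counts of these genes are likewise uncertain.

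The inducible catalytic subunits, which replace Psmb5, Psmb6 and Psmb7 in the immunoproteasome, are no members and serve as the comparison for PA28. Psmb8 measured 365 to 414 CPM in responders (median 389) and 95.6, 332, 285 and 234 CPM in non-responders (log2 difference 0.72, SE 0.25, adjusted p = 0.0923). Psmb9 measured 214 to 271 CPM (median 229.5) and 42.3, 202, 164 and 132 CPM (log2 fold change 0.82, SE 0.31, adjusted p = 0.114). Psmb10 measured 159 to 188 CPM (median 185) and 49.7, 162, 138 and 125 CPM (estimate 0.60, SE 0.24, adjusted p 0.127). The groups did not overlap for Psmb8 and Psmb9, and for Psmb10 non-responder 2 lay above the lowest responder. Without non-responder 1 the estimates were 0.46 for Psmb8, 0.52 for Psmb9 and 0.35 for Psmb10, and without non-responder 2 they were 0.93, 1.08 and 0.79, the first of which passed the threshold (adjusted p = 0.0464).

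Set against the constitutive partner of the same site, in RPKM, Psmb9 over Psmb6 was 1.10 to 1.39 in responders (median 1.19) and 0.230, 1.01, 0.829 and 0.680 in non-responders. Psmb8 over Psmb5 was 2.67 to 3.40 in responders (median 3.07) and 0.729, 2.80, 2.12 and 1.65 in non-responders. Psmb10 over Psmb7 was 2.77 to 3.45 in responders (median 3.24) and 0.873, 2.83, 2.33 and 1.98 in non-responders. Each ratio was lowest in non-responder 1. Only the first ratio had groups that did not overlap. Which partner is the higher depends on the length used. With the longest transcript, an alternative chosen after the values were seen, Psmb9 over Psmb6 was 0.719 to 0.908 in responders, so that 0 of 6 were above 1 in place of 6 of 6, and in non-responder 1 Psmb8 over Psmb5 was 1.29 in place of 0.729.

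A few members followed these subunits from tumor to tumor. Pearson's r of log2 CPM with the mean of Psmb8, Psmb9 and Psmb10 over the 10 tumors was above 0.9 for 4 of 46 members. It was 0.99 for Psme1, 0.99 for Psma4, 0.97 for Psme2 and 0.91 for Psma5, with a Spearman rho of 0.93, 0.90, 0.78 and 0.56. The points share the libraries and their scaling, and no test was run. Without non-responder 1, an alternative chosen after the values were seen, r was 0.96 for Psme1 and 0.94 for Psma4 but 0.79 for Psme2 and 0.69 for Psma5. Without both tumors farthest from the median, non-responders 1 and 4, r was 0.91, 0.85, 0.49 and 0.20 in the same order. The likeness of Psme2 and Psma5 thus rested largely on those tumors. Without both, Psmg1 had the highest r of the members, 0.94, against -0.16 over 10 tumors. Over the 6 responders alone r was 0.92 for Psme1, 0.72 for Psma4, 0.62 for Psme2 and 0.38 for Psma5. It was 0.82 for Psmd3 and Psmd10, which had -0.06 and -0.37 over 10 tumors. Psme2b, the next member at 0.897 over 10 tumors, had 0.88 without non-responder 1, 0.67 without both and -0.23 over the responders.

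Over all 14 genes of the 20S core, Psma4 and Psma5 included, the median r was 0.71 over 10 tumors and -0.07 without non-responder 1. Besides Psma4 and Psma5, Psmb2 kept an r of 0.56 without it, from 0.86 over 10 tumors. The median r of the 17 genes of the 19S particle was -0.33. Psme3 had the lowest value of all members over 10 tumors, -0.75, but it was -0.45 without non-responder 1 and 0.61 over the 6 responders. Without non-responder 1 the lowest was Psmb7 at -0.92, from -0.26 over 10 tumors, followed by Psmc2 at -0.80, from -0.10. Pairs of genes within the core had a median r of 0.56 over 10 tumors and 0.10 without non-responder 1, pairs within the 19S particle 0.25 and 0.28, and pairs of all genes tested 0.00 over 10 tumors.

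**Figure D4:**
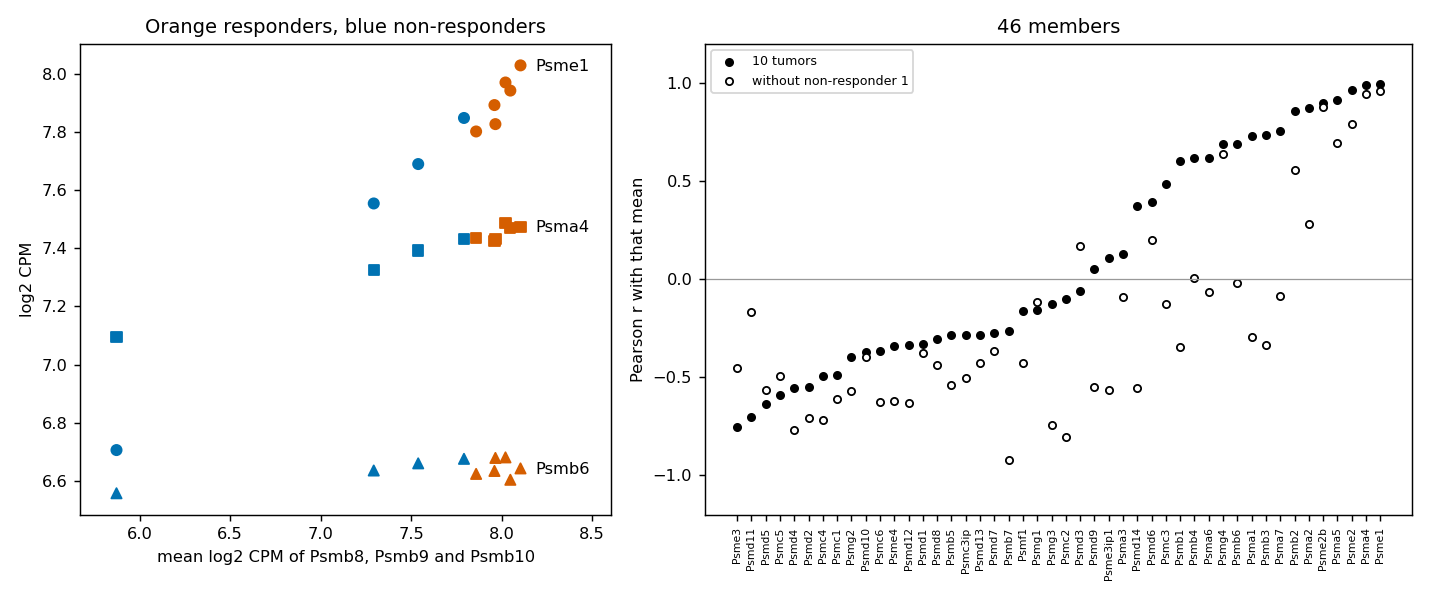
Left, log2 CPM of Psme1 (circles), Psma4 (squares) and Psmb6 (triangles) against the mean log2 CPM of Psmb8, Psmb9 and Psmb10, each point a tumor; right, Pearson's r of each of the 46 members with that mean over 10 tumors (filled) and without non-responder 1 (open). Psme1 and Psma4 keep an r over 0.9 without that tumor, at 0.96 and 0.94. The median r of the 20S core is 0.71 over 10 tumors and -0.07 without that tumor.

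An IFN-gamma response list of 11 genes, among them Irf1, Tap1, B2m and Cxcl9, had higher estimates in responders for 11 of 11 genes. Of these 1, Ciita, was called (1.05, SE 0.27, adjusted p = 0.0423), which is 9.09%, against 8.06% of all genes tested. At an unadjusted p under 0.05 in edgeR there were 10 of 11, or 90.9%, against 29.1% of all genes. Every responder lay above every non-responder in 5 of the 11 genes, or 45.5%, against 5.84% of all genes. The summed level of the IFN-gamma list was 5538 to 7497 CPM in responders (median 6494) and 1978, 5625, 4937 and 3814 CPM in non-responders. This was the same order of non-responders as for Psme1, Psma4 and the inducible subunits, and also as for the summed leukocyte markers. A proliferation list of 10 genes had 4 higher and 6 lower estimates and 0 calls in edgeR, with 2 at an unadjusted p under 0.05. Its sum was 2112 to 2339 CPM in responders and 2163 to 2313 CPM in non-responders. The part of IFN signaling, leukocyte content or proliferation in the values of the members was not tested.

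An element bound by IFN-activated factors, the IFN-stimulated response element, holds the repeat GAAANNGAAA. Only 39 of the 46 members had a promoter window under their symbol, and the rest were not searched. The repeat was found on either strand in 5 of 43 member windows, or 11.6%, and in 3.44% of all 32851 windows. These were the windows of Psme1, Psmg4, Psmb3, Psmd4 and Psmd9. The first 4 are shown, on the strand of the gene and with the repeat or its reverse complement in capitals. This choice was made after the values were seen, and Psmd9 is not shown. Of the 5 genes, Psme1, Psmg4 and Psmd4 had an unadjusted p under 0.05 in edgeR, as had 19.6% of all members, and Psmb3 and Psmd9 had not. The motif starts 10 bases after the start site of Psme1, 16 after that of Psmg4, 163 before that of Psmb3 and 80 before that of Psmd4.
Psme1, chr14:55578493-55578522, plus strand: cgagctgtgcTTTCGCTTTCccttcccgct
Psmg4, chr13:34162969-34162998, plus strand: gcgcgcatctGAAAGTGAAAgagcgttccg
Psmb3, chr11:97703261-97703290, plus strand: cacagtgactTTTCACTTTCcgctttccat
Psmd4, chr3:95042675-95042704, minus strand: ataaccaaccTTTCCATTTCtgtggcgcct
The estimates of the 5 genes had no common direction, with 0.40 for Psme1 and 0.26 for Psmg4 but 0.02 for Psmb3, -0.03 for Psmd9 and -0.14 for Psmd4.

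The wider ubiquitin-proteasome pathway was covered by 31 tested genes outside the members. None was called in edgeR, 10 had an unadjusted p under 0.05, 3 higher and 7 lower, which is 32.3% and near the 29.1% of all genes, and DESeq2 called 1, Ubqln4. The 3 higher ones were the inducible subunits. The 7 lower ones included Ubqln4 and Rad23b, shuttles that carry ubiquitinated proteins to the proteasome, the unfoldase cofactor Nploc4, the ligase Ube3c, the small 19S subunit Sem1 and the ubiquitin fusion gene Rps27a. Ubqln4 measured 128 to 141 CPM in responders (median 136) and 162, 138, 147 and 161 CPM in non-responders (log2 difference -0.17, SE 0.05, adjusted p = 0.0686). Ube3c, which extends ubiquitin chains on proteasome-bound substrates, had groups that did not overlap, with 86.1 to 97.2 CPM in responders (median 93.5) and 108, 102, 99.8 and 97.5 CPM in non-responders (log2 fold change -0.14, SE 0.05, adjusted p = 0.0834). Pomp, a maturation factor of the 20S core that is also used by the immunoproteasome, had 143 to 169 CPM in responders (median 160.4) and 124, 155, 156 and 154 CPM in non-responders. Non-responder 1 alone was low, and the log2 fold change was 0.11 (SE 0.07, adjusted p = 0.347), or 0.04 without that tumor.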

How the data were processed

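RNA from 10 tumors, each from a different mouse, was sequenced as polyA libraries (150 bp paired-end). The authors estimated transcript abundance with Kallisto and used tximport to reach gene level on mm10; the submitters' notes name GRCm38. The deposited values are expected counts, not scaled to depth; the scaling option, annotation release and strand setting were not given in the sources used here. No gene name was given for 9633 rows, holding 1.04% to 1.23% of counts, which stayed in the totals.

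Counts were rounded and analyzed with edgeR 4.0.16 in R 4.3.3 (filterByExpr, minimum count 10 and minimum total 15, leaving 16041 genes; TMM; quasi-likelihood test, two-sided; Benjamini-Hochberg adjustment over all genes; threshold 0.05) without covariates, since no batch was labeled. The script was tested on simulated data. CPM used TMM-scaled totals, log2 CPM a prior count of 2, and RPKM the merged exons of GENCODE vM21. The SE was the fold change over the square root of F. Medians and sums over a list are descriptions without a test.

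Alternatives were RLE, upper-quartile and unscaled totals, no filter, DESeq2 1.42.0, limma-voom (limma 3.58.1), each tumor left out, and for the members' number other level minimums. Genes named with values were the PA28, PA200 and constitutive catalytic genes, called members, the largest and smallest fold change of each role, the highest and lowest RPKM, and Psmb8, Psmb9, Psmb10, Pomp, Nfe2l1 and Nfe2l2. Psmc1, Psmd2, Psmd14, Psma5, Adrm1, Ubqln4, Ube3c, Ciita, the neighbors of Psme2b and the motifs were added after values were seen. Members and lists were chosen with earlier results of these data known.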

Additional observations from a re-analysis of the deposited data

Results flagged for a closer look

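In each group, the highest or lowest tumor was set against its neighbors for 32 named genes by Dixon's test, 64 groups of values in all, of which 6 stood out where chance alone would give 3.2. Each value is the gap to the nearest tumor over the whole range of the group. Psmd9 was highest in non-responder 4, at 33.3 CPM with the others at 26.5 to 27.6 CPM (0.837). Psmg4 was highest in responder 2, at 16.7 CPM with the others at 13.7 to 14.9 CPM (0.631). Psme4 was highest in responder 6, at 128 CPM with the others at 111 to 115 CPM (0.754). Psme3ip1 was lowest in responder 2, at 41.2 CPM with the others at 44.0 to 45.7 CPM (0.626). Psmb10 was lowest in responder 6, at 159 CPM with the others at 177 to 188 CPM (0.641). Pomp was lowest in non-responder 1, at 124 CPM with the others at 154 to 156 CPM (0.948).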

How the results depend on the processing

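The count of members called was 1 under each of the 6 alternatives in scaling, filter or tool and 0 to 2 when 1 tumor was left out. It was 0 without responder 1, 2, 3, 5 or 6 or non-responder 1, 3 or 4, and 2 without non-responder 2, where Psmg4 joined Psme2b. Calls among all genes moved too, from 1293 to 17 without responder 3, 16 without non-responder 1 and 0 without non-responder 4. They rose to 1897 without non-responder 2, to 1619 without responder 4 and to 2602 with DESeq2. The number of calls thus hung on single tumors. Related genes called were 1 with DESeq2 (Ubqln4) and 0 to 2 when 1 tumor was left out. The 2 were Ubqln4 and Psmb8, called without non-responder 2. Of 32 named genes, 25 kept their direction under all 16 alternatives. The sign of Psmb1, near 0, turned in 11, to 0.000879 (RLE), 0.000449 (no filter), 0.000347 (DESeq2) and 0.00114 (limma-voom), and with 1 tumor left out its log2 fold change ran from -0.0232 to 0.0169. Leaving out 1 tumor also turned the sign of Psma3 (-0.0291 to 0.0150), Psmb6 (-0.00739 to 0.0273), Psmc3 (-0.00211 to 0.0480), Psmd9 (-0.0595 to 0.0577), Psme3ip1 (-0.0287 to 0.0365) and Nfe2l1 (-0.0388 to 0.0175). The median log2 fold change of the 20S core ran from -0.00972 without non-responder 1 to 0.0523 without non-responder 4, and that of the 19S genes lay between -0.06 and -0.04 throughout; for these medians the alternatives were chosen after seeing the data. The members numbered 53 with no level minimum and 46 with a TMM-scaled one. The cause of these shifts was not tested. No paired analysis was possible because each tumor came from a different mouse.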
